A study of Mus musculus with 8 samples.

Results

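The CXC chemokine ligands are a family of small secreted proteins, and the transcripts of 10 of them (Cxcl1, Cxcl2, Cxcl3, Cxcl5, Cxcl9, Cxcl10, Cxcl12, Cxcl16, Ppbp and Pf4) were followed in eosinophils sorted from the bone marrow and the small intestine of mice. Members were taken by gene symbol, and all 10 were found among the 38392 genes of the table. Eosinophils came from female wildtype mice of the C57/BL6 strain, 4 libraries per tissue, with no treatment. Bone marrow cells were gated as CD11b+Ly6G-Ly6C-SiglecF+SSChi and small intestinal cells as CD11b+MHC-II-SiglecF+SSChi. Intestinal tissue was digested at body temperature and its cells were enriched on CD11b beads before sorting, per the study's methods, and bone marrow cells were not, so tissue and handling cannot be told apart. The comparison asked how eosinophils that reside in the intestine differ from those at their site of production. Column names serve as library names, where BM marks bone marrow and SI small intestine, followed by a number.

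CXC ligands carry a pair of cysteines separated by another residue and act on G protein-coupled receptors of leukocytes. Members with a glutamate-leucine-arginine motif before these cysteines (Cxcl1, Cxcl2, Cxcl3, Cxcl5 and Ppbp) attract neutrophils through Cxcr2. Cxcl9 and Cxcl10 are induced by interferons and attract T cells through Cxcr3, Cxcl12 retains leukocytes in the marrow through Cxcr4, Cxcl16 is a membrane-bound ligand of Cxcr6 that can be shed, and Pf4 is stored with Ppbp in platelet granules. In the intestine these ligands are known to position neutrophils and lymphocytes in the lamina propria.

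Reads in genes numbered 11508002 to 21289164 per library. BM_5 stood apart from the other bone marrow libraries, with reads for 30886 genes against 19713 to 24592. The bone marrow libraries also went against their label in part. Neutrophil markers took between 3.64% and 4.33% of reads there, whereas the granule protein genes of eosinophils were far lower (Epx, eosinophil peroxidase, had 349.9 ± 40.2 normalised counts and Mpo, myeloperoxidase of neutrophil precursors, 149860.0 ± 19352; SD, n = 4). In small intestine Ccr3, the eotaxin receptor, and Siglecf, the gated lectin, rose by 7.83 and 2.39 on the log2 scale, while Epx had 20.6 ± 9.06 normalised counts. Normalised counts are reads scaled by library size, as recovered from the deposited values. In bulk libraries fewer cells of a type and less RNA per cell cannot be told apart.

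Of the 10 ligands, 8 lie on chromosome 5 (GRCm38). Cxcl5, Ppbp, Pf4, Cxcl3, Cxcl1 and Cxcl2 lie within 146.6 kb in that order, and Cxcl9 and Cxcl10 follow 1424 kb further on. Promoter sequences were taken from RefSeq (GRCm38.p6), which matched 8 of the 10 ligands (not Cxcl5 and Cxcl16). The bases before the transcription start of Cxcl1, Cxcl2 and Cxcl3 are shown because these neighbours hold the same element, those of Cxcl10 because it holds other versions of this element, and those of Ppbp because it lies in the same cluster without it. Sequences run 5′ to 3′ on the strand of the gene, end at the last base before the start, and carry matches to the NF-kappaB consensus in capitals. Matches on both strands overlap at Cxcl1, Cxcl2 and Cxcl3, which makes 1 run.

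Cxcl1, chr5:90891115-90891244, plus strand: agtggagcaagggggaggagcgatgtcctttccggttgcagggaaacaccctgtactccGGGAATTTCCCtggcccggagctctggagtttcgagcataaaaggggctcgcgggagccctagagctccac
Cxcl2, chr5:90903769-90903898, plus strand: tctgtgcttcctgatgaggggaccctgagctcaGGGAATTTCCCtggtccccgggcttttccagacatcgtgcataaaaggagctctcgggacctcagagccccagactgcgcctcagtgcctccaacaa
Cxcl3, chr5:90785971-90786100, plus strand: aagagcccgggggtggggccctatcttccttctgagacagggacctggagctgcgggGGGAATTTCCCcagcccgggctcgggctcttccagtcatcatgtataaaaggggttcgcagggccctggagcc
Cxcl10, chr5:92348890-92349089, minus strand: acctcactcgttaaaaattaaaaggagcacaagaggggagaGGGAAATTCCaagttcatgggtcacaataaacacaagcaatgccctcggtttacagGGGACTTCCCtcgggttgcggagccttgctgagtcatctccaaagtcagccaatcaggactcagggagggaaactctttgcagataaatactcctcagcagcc
Ppbp, chr5:90768388-90768517, plus strand: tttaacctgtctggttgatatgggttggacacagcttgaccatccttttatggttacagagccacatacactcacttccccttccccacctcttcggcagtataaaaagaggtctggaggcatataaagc

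Motifs were searched on both strands in windows from 250 bases before to 50 bases after the start. The run GGGAATTTCC began 71 bases before the RefSeq start of Cxcl1, 97 bases before that of Cxcl2 and 73 bases before that of Cxcl3. The printed bases of Cxcl2 end at 90903898, past its annotated gene start of 90903871 in GENCODE. Its distances would be shorter from that start, so its position is not compared with those of Cxcl1 and Cxcl3. For Cxcl1 the same positions are 90891244 and 90891241. The run was found in 29 of 32851 promoters (0.0883%), 3 of which were these. Its letters were read from the ligand promoters, as their most frequent match to the NF-kappaB consensus. Its presence in these 3 was thus set by the choice. The wider NF-kappaB consensus was found in 4.51% of promoters and in 4 of the 8 ligands, the fourth being Cxcl10 with 2 matches that began 159 and 103 bases before its start. Downstream of the first motif, Cxcl1, Cxcl2 and Cxcl3 shared the TATA-like run ATAAAAGG (1.76% of promoters), which Ppbp holds on the other strand, 87 bases before its start. Cxcl10 also held the core of the interferon-stimulated response element (3.44% of promoters). It matched TGANTCA (7.81% of promoters) with the letters TGAGTCA, a motif bound by AP-1. TGANTCA was also matched in Ppbp (TGAATCA) and, after the start, in Cxcl9 (TGACTCA). TTCNNNGAA (8.30% of promoters) was found in none of the 8 windows. The motifs were chosen after the values of the genes were known, and a match is a description of letters.

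Ligand transcripts were scarce in bone marrow and, through Cxcl2 and Cxcl3, abundant in small intestine. Summed over the 10 genes bone marrow libraries gave them 0.00176% ± 0.000383 of reads, against 0.554% ± 0.0903 for small intestine (SD, n = 4 each). In limma, 6 of 10 were higher in small intestine (Cxcl2, Cxcl3, Cxcl10, Cxcl1, Cxcl16 and Ppbp) and none was lower, where 34.9% of all genes were called at an adjusted p of 0.05, 22.0% higher and 12.9% lower. For the same 6 ligands every small intestine library was above every bone marrow library, which held for 20.3% of all genes (13.9% were separated the other way, 34.3% in all). The median difference of the 10 was 3.35 on the deposited log2 scale, against 0.37 over all genes. Where at least 10 reads were found on average (16215 genes, all ligands but Cxcl5 among them), 63.1% of genes were called and 34.6% were higher. Cxcl5, Cxcl9, Cxcl12 and Pf4 did not pass. Differences with limma's SE are in units of the deposited log2 values, positive where small intestine was higher, and p-values are adjusted over all genes.

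**Figure D1:**
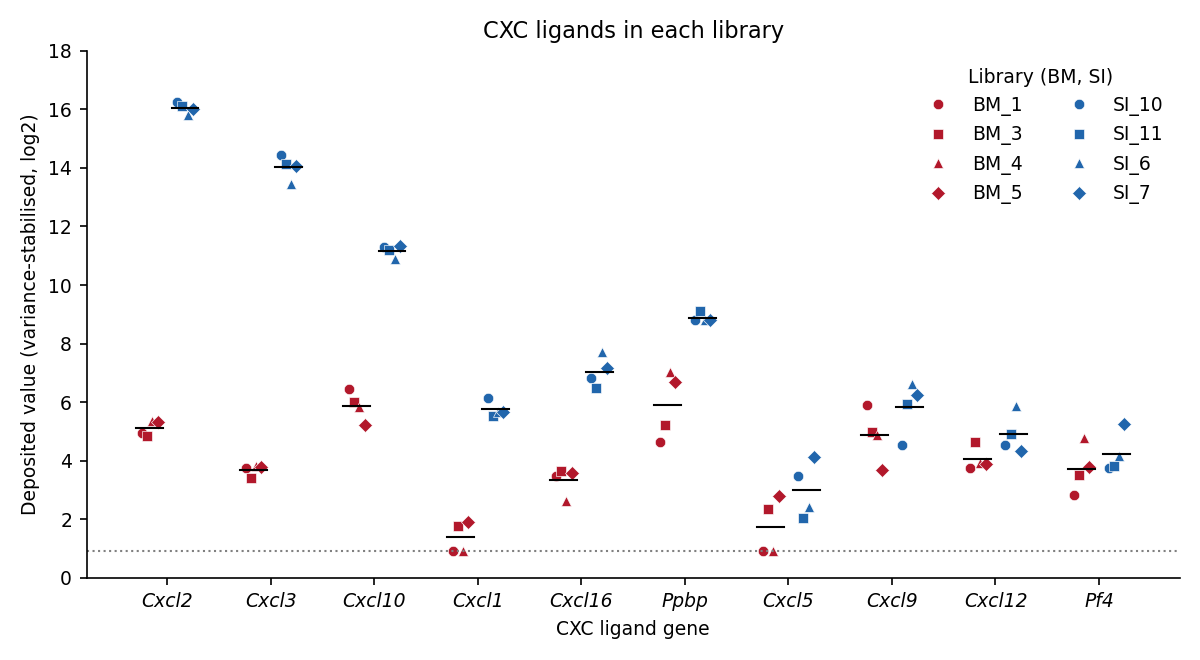
Deposited variance-stabilised log2 value (y axis) of each CXC ligand (x axis) in the 4 bone marrow (red) and 4 small intestine (blue) libraries. Short lines are means and the dotted line is the value of 0 reads; the tissues stand clear of each other for 6 ligands, by most for Cxcl2 and Cxcl3, and overlap for Cxcl5, Cxcl9, Cxcl12 and Pf4.

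Among the neutrophil-attracting ligands, Cxcl2 (ENSMUSG00000058427; chromosome 5, 90903871 to 90905938) had 26.8, 24.8, 37.3 and 36.3 normalised counts in BM_1, BM_3, BM_4 and BM_5, and 57789.5, 66516, 77684 and 70116 in SI_6, SI_7, SI_10 and SI_11. The bone marrow libraries lay within 1.51-fold of each other and the small intestine libraries within 1.34-fold, so the gap between tissues was far wider than either spread. Cxcl2 had the largest rise of all 38392 genes (10.94 ± 0.21, limma adjusted p = 1.01e-07) and was the ninth most abundant gene in small intestine.

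Cxcl3 (ENSMUSG00000029379; chromosome 5, 90786103 to 90789600) had 9.96, 7.17, 10.5 and 10.2 normalised counts in BM_1, BM_3, BM_4 and BM_5, and 11145, 17204, 22220.2 and 18077 in SI_6, SI_7, SI_10 and SI_11. It rose by 10.33 ± 0.25 (limma adjusted p = 1.54e-07), the ninth largest rise. SI_6 was lowest and SI_10 highest for Cxcl3 as for Cxcl2, and the tissues did not overlap.

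Cxcl1 (ENSMUSG00000029380; chromosome 5, 90891241 to 90893115) had 0, 1, 0 and 1 reads in BM_1, BM_3, BM_4 and BM_5, and 46.9, 47.2, 66.7 and 42.7 normalised counts in SI_6, SI_7, SI_10 and SI_11. It rose by 4.37 ± 0.30 (limma adjusted p = 1.36e-05). Since its bone marrow libraries held 2 reads in all against 174 in small intestine, the ratio between tissues (127.1, exact 95% counting interval 34.7 to 1058) is known only roughly. Its level in small intestine was far below that of Cxcl2 and Cxcl3, with which it shares the promoter run in capitals.

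Cxcl5 (ENSMUSG00000029371; chromosome 5, 90759360 to 90761624) was the lowest ligand in small intestine, with at most 10 reads in any library. It had 0, 3, 0 and 4 reads in BM_1, BM_3, BM_4 and BM_5 and 2, 10, 7 and 1 in SI_6, SI_7, SI_10 and SI_11. The libraries of the tissues overlapped, and the difference was 1.26 (95% interval -0.11 to 2.63, limma adjusted p = 0.147), so a change was not detectable at this depth.

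The close sequences of the neighbouring ligands could let reads be counted for the wrong gene. Of the windows of 75 bases in their annotated transcripts, 101 were shared between Cxcl2 and Cxcl3, which is 4.57% of those of Cxcl2 and 2.78% of those of Cxcl3. Cxcl1 shared none with any other gene. How reads that match several genes were counted is not given in the sources used here, so the values of Cxcl2 and Cxcl3 hold this small uncertainty.

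Ratios within a library do not depend on the scaling between libraries and show how the mixture of ligands differed. With 1 read added to each ligand, all 5 pairs compared gave p = 0.0286 in 2-sided exact permutation tests, n = 4 each (0.0286 adjusted over the 5), the smallest this design can give. For the pairs with Cxcl1 and for Cxcl2 with Cxcl3, however, the separation rests on the added read, and it is not used here. The log2 ratio of Cxcl2 to Cxcl1 reads (1 added to each) averaged 4.77 ± 0.55 over bone marrow libraries and 10.36 ± 0.22 over those of small intestine, but with 0 or 1 Cxcl1 reads the bone marrow value is set largely by the added read. Pooled over libraries, Cxcl1 made up 2 of 153 Cxcl1 and Cxcl2 reads in bone marrow (1.31%, exact 95% interval 0.159 to 4.64) and 174 of 231248 in small intestine (0.0752%, 0.0645 to 0.0873). Of Cxcl1 and Cxcl3 reads, Cxcl1 made up 2 of 48 in bone marrow (4.17%, 0.509 to 14.3) and 174 of 58353 in small intestine (0.298%, 0.256 to 0.346). For both pairs the intervals did not overlap, and they cover counting error only.

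The log2 ratio of Cxcl2 to Cxcl3 averaged 1.63 ± 0.18 over bone marrow libraries and 2.02 ± 0.25 over those of small intestine, a difference of 0.39 (0.65 with 5 reads added in place of 1). With nothing added the difference was 0.30, BM_4 and BM_5 were above SI_10, and the call was lost (exact permutation p = 0.0857, also when adjusted over the 3 pairs with reads in every library), so a change in this ratio was not detectable. From pooled reads, Cxcl3 made up 23.4% (17.6 to 29.9) of Cxcl2 and Cxcl3 reads in bone marrow and 20.1% (19.97 to 20.26) in small intestine, so these counting intervals overlapped.

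**Figure D2:**
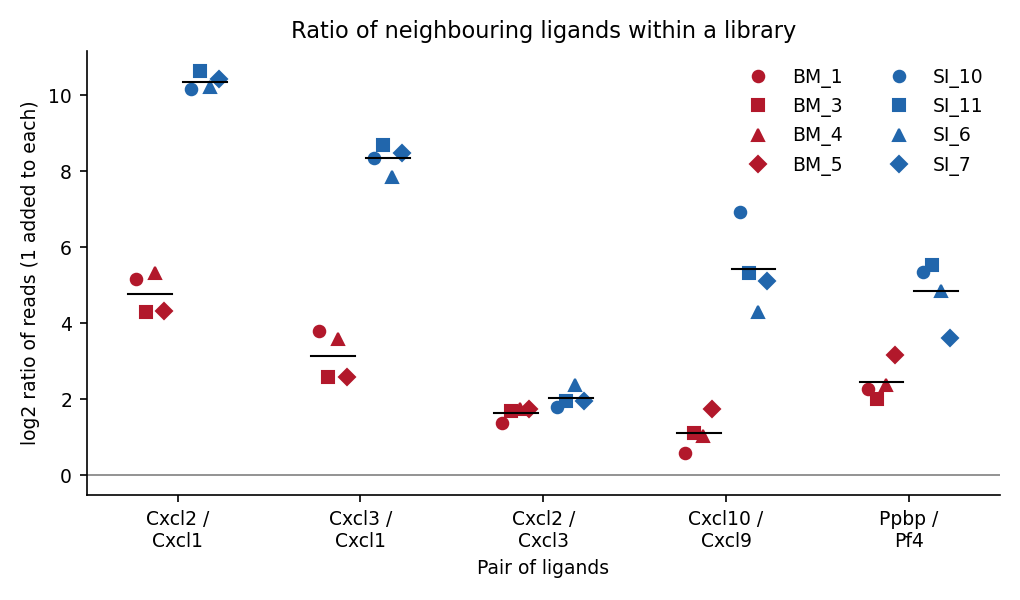
Log2 ratio of reads of neighbouring ligands within each library, 1 read added to each (y axis), for 5 pairs (x axis) in bone marrow (red) and small intestine (blue). Short lines are means; the ratios of Cxcl2 to Cxcl3 lie close together in both tissues (1.63 and 2.02 on average), and those of Cxcl10 to Cxcl9 lie far apart (1.11 and 5.42).

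Of the interferon-induced ligands, Cxcl10 (ENSMUSG00000034855; chromosome 5, 92346638 to 92348889) had 83.5, 61.3, 53.6 and 33.5 normalised counts in BM_1, BM_3, BM_4 and BM_5, and 1893, 2557, 2534 and 2339 in SI_6, SI_7, SI_10 and SI_11. Every small intestine library was above every bone marrow library, and the small intestine libraries lay within 1.35-fold of each other. Cxcl10 rose by 5.30 ± 0.28 (limma adjusted p = 3.98e-06). It lies within Art3 on the other strand, and 2.47% of its transcript windows are shared with Art3. Without a known strand setting, reads from these windows, or from unspliced Art3 RNA across Cxcl10, cannot be told apart from those of Cxcl10. Art3 had 152.3 ± 38.4 normalised counts in small intestine against 2331 ± 307.9 for Cxcl10.

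Cxcl9 (ENSMUSG00000029417; chromosome 5, 92321347 to 92328079) lies 20.8 kb from Cxcl10 and did not pass the test. It had 55.9, 28.0, 25.8 and 9.30 normalised counts in BM_1, BM_3, BM_4 and BM_5, and 94.97, 72.1, 19.7 and 56.9 in SI_6, SI_7, SI_10 and SI_11. The tissues overlapped, since 3 of the 4 bone marrow libraries were above SI_10. The difference was 0.97 (95% interval -0.32 to 2.27, limma adjusted p = 0.224), falling to 0.072 with median-centring, 0.41 with quantile normalisation and 0.58 without BM_5. The log2 ratio of Cxcl10 to Cxcl9 went from 1.11 ± 0.49 in bone marrow to 5.42 ± 1.10 in small intestine.

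Cxcl16 (ENSMUSG00000018920; chromosome 11, 70453983 to 70459984) had 7.66, 9.13, 2.87 and 8.37 normalised counts in BM_1, BM_3, BM_4 and BM_5, and 206.3, 138.7, 110.5 and 85.3 in SI_6, SI_7, SI_10 and SI_11. It rose by 3.72 ± 0.34 (limma adjusted p = 6.87e-05), with no overlap. Its value was highest in SI_6, and the difference without SI_6 was 3.49 (limma adjusted p = 0.000292). Cxcl16 overlaps Zmynd15 on the other strand, with which it shares 15.4% of its windows. Zmynd15 had 24.1 ± 16.4 normalised counts in small intestine.

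Cxcl12 (ENSMUSG00000061353; chromosome 6, 117168535 to 117181367) was low in both tissues. It had 9.96, 21.5, 11.5 and 11.2 normalised counts in BM_1, BM_3, BM_4 and BM_5, and 54.6, 16.6, 19.7 and 26.1 in SI_6, SI_7, SI_10 and SI_11. SI_6 was the highest library, and SI_7 and SI_10 were below BM_3. The difference was 0.86 (95% interval 0.02 to 1.71, limma adjusted p = 0.110) and turned to -0.038 when each library was centred on its median.

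Ppbp, the precursor of platelet basic protein (ENSMUSG00000029372; chromosome 5, 90768518 to 90770063), had 21.5, 33.3, 128.2 and 98.5 normalised counts in BM_1, BM_3, BM_4 and BM_5, and 437.7, 442.4, 443.0 and 548.8 in SI_6, SI_7, SI_10 and SI_11. The bone marrow libraries spread over 5.98-fold and the small intestine libraries over 1.25-fold. It rose by 2.98 ± 0.52 (limma adjusted p = 0.00211), with no overlap.

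Pf4, platelet factor 4 (ENSMUSG00000029373; chromosome 5, 90772435 to 90773383), did not follow its neighbour. It had 3.83, 7.83, 23.9 and 10.2 normalised counts in BM_1, BM_3, BM_4 and BM_5, and 14.2, 34.7, 9.85 and 10.7 in SI_6, SI_7, SI_10 and SI_11. The tissues overlapped throughout, and the difference was 0.52 (95% interval -0.58 to 1.62, limma adjusted p = 0.460), turning to -0.38 with median-centred libraries and -0.39 with quantile normalisation. Without SI_7 it was 0.18, without BM_1 0.22 and without BM_4 0.87. BM_4 was the highest bone marrow library for Pf4 and for Ppbp. The log2 ratio of Ppbp to Pf4 averaged 2.45 ± 0.50 for bone marrow libraries and 4.84 ± 0.86 for those of small intestine.

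Of 10 megakaryocyte and platelet markers, led by Itga2b, Gp9 and Gp1ba, 1 rose (Itga2b, by 4.34 ± 0.41), 1 fell (Gp9, by 3.95 on the log2 scale) and 8 did not pass. They summed to 0.00123% to 0.00160% of reads in bone marrow libraries and to 0.00268% to 0.00488% in those of small intestine, and no marker lacked reads over a whole tissue. Itga2b carried the rise of this sum, going from 20.3 ± 11.6 (bone marrow) to 445.8 ± 127.8 (small intestine) normalised counts. Gp9 went from 89.6 ± 22.4 to 4.19 ± 3.63. Of the remaining markers the highest in small intestine was Gp1ba, with 35.1 ± 6.48. The part of these markers in the result for Ppbp was not tested.

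**Figure D3:**
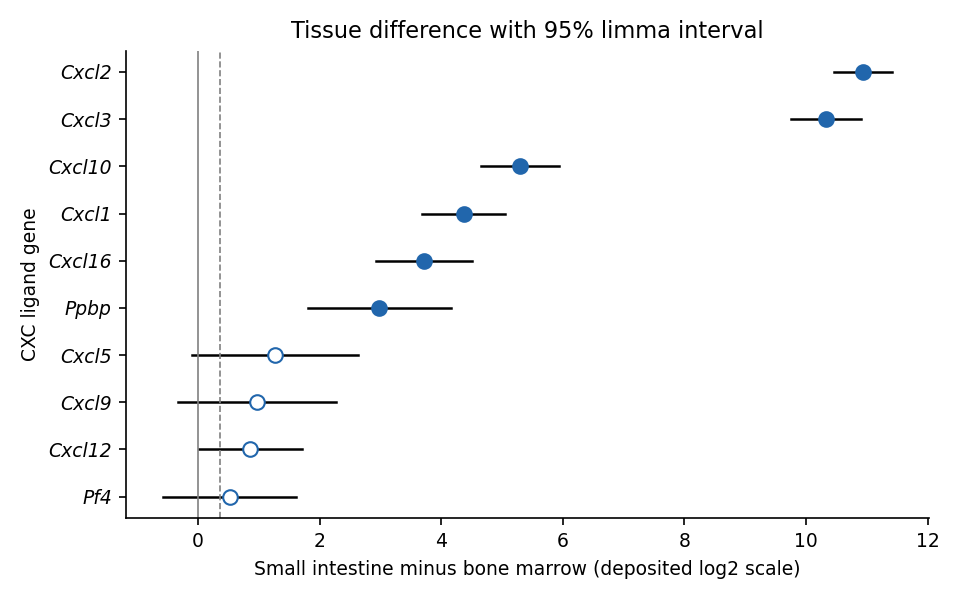
Difference of each CXC ligand (y axis) between the tissues, positive where small intestine was higher (deposited log2 scale, x axis), with limma's 95% interval. Filled points passed an adjusted p of 0.05; the dashed line is the median of all genes (0.37), and the 6 ligands that passed lie between 2.98 and 10.94.

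Levels of different ligands were compared per kb of exon. In small intestine the order was Cxcl2 (32895 ± 3995 normalised counts per kb), Cxcl3 (4906 ± 1306), Cxcl10 (1035 ± 136.7), Ppbp (432.1 ± 49.8), Cxcl16 (44.8 ± 17.3), Cxcl1 (27.1 ± 5.74), Pf4 (24.1 ± 16.2), Cxcl9 (20.2 ± 10.5), Cxcl12 (3.58 ± 2.12) and Cxcl5 (3.34 ± 3.13). The first 4 were separated from each other and from the rest, whereas the ranges of all later neighbours overlapped. In bone marrow Ppbp was highest (65.0 ± 47.4 normalised counts per kb), followed by Cxcl10 (25.7 ± 9.18), Pf4 (15.9 ± 12.1), Cxcl2 (15.1 ± 3.10) and Cxcl9 (9.87 ± 6.41). These 5 overlapped with their neighbours, and so did Cxcl3, Cxcl16, Cxcl12, Cxcl5 and Cxcl1, which all had means of at most 2.71. Between these groups lay the only gap.

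The make-up of the ligand pool differed between tissues. Cxcl2 made up 77.3% ± 2.30 and Cxcl3 19.2% ± 2.55 of all ligand reads in small intestine. In bone marrow the largest parts were Ppbp (28.7% ± 17.9), Cxcl10 (25.7% ± 10.9), Cxcl2 (13.5% ± 1.90) and Cxcl9 (13.2% ± 9.20), out of only 239 to 307 ligand reads per library.

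Of 8 receptors of these ligands, 5 were called higher and none lower, but only 3 of them with median-centred libraries or with quantile normalisation, which also called 2 and 1 lower. Cxcr4, the receptor of Cxcl12, rose from 1592 ± 117.9 to 5584 ± 1511 normalised counts (1.77 ± 0.24, limma adjusted p = 0.000538; with median-centring 0.87, adjusted p = 0.134). Cxcr6, the receptor of Cxcl16, rose from 34.0 ± 3.88 to 206.0 ± 32.3 (2.47 ± 0.20, limma adjusted p = 3.20e-05).

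Cxcr2, the receptor of the neutrophil-attracting ligands, was well covered in both tissues. It had 653.5, 823.7, 800.9 and 684.2 normalised counts in BM_1, BM_3, BM_4 and BM_5, and 444.3, 558.9, 641.1 and 751.5 in SI_6, SI_7, SI_10 and SI_11. The libraries overlapped and the difference was -0.32 (95% interval -0.83 to 0.18, limma adjusted p = 0.301), although median-centring gave -1.22 with an adjusted p of 0.0288. Ackr3 and Ackr1, atypical receptors that bind chemokines without signalling through G proteins, and Cxcr5, the receptor of Cxcl13, rose by 2.75 ± 0.40, 2.32 ± 0.46 and 1.15 ± 0.33 from at most 9 reads in any bone marrow library. The call for Cxcr5 was lost with either other scaling (adjusted p = 0.692 and 0.641), and that for Ackr1 with quantile normalisation (0.187). Cxcr1 (1.28, limma adjusted p = 0.0819) and Cxcr3 (-0.26, limma adjusted p = 0.476) had at most 6 reads in any library and did not pass, but Cxcr3 was called lower with median-centring (-1.16, adjusted p = 0.0382) and with quantile normalisation (-1.23, adjusted p = 0.0114).

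Among genes that process the ligands, Mmp9, a protease of matrix and chemokines, rose by 7.19 ± 0.36 (limma adjusted p = 2.80e-06), and Adam10, which sheds Cxcl16 from the membrane, fell by 0.91 on the log2 scale (limma adjusted p = 0.00455). Adam17 and Dpp4 did not pass (0.00 and 1.70, limma adjusted p = 0.999 and 0.0617).

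All 9 NF-kappaB subunits and feedback genes on the list were higher in small intestine, with a median difference of 4.35 over the list. The largest differences were those of Tnfaip3, a feedback inhibitor (7.49 ± 0.25), the nuclear cofactor Nfkbiz (6.82 ± 0.23), the subunit Relb (6.72 ± 0.31) and the inhibitor Nfkbie (5.10 ± 0.19), with limma adjusted p-values between 4.68e-07 and 2.10e-06. Rela rose least (0.67 ± 0.19, limma adjusted p = 0.0230), and its difference turned to -0.23 with median-centring.

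Of 8 interferon receptors and factors that induce Cxcl9 and Cxcl10, 3 were called higher and none lower, whereas 5 were called higher with voom, quantile normalisation or a trended prior and without SI_6. The 3 were the factor Irf1 (2.44 ± 0.20) and the receptor chains Ifnar1 (2.16 ± 0.24) and Ifngr2 (1.51 ± 0.19), with limma adjusted p-values between 3.91e-05 and 0.000346 as fitted on the deposited values. Ifngr2 lost its call with median-centring (0.61, adjusted p = 0.302). The median of the list was 0.51, against 0.37 for all genes.

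Of 6 regulators of chemokine mRNA decay, Zfp36, which destabilises AU-rich transcripts (5.88 ± 0.19), the endonuclease Zc3h12a (3.71 ± 0.20) and Zfp36l1 (3.19 ± 0.33) rose, with limma adjusted p-values between 4.20e-07 and 0.000135. Hnrnpd, another AU-rich element binding protein, fell by 0.89 on the log2 scale (limma adjusted p = 0.00447), and the other two did not pass.

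**Figure D4:**
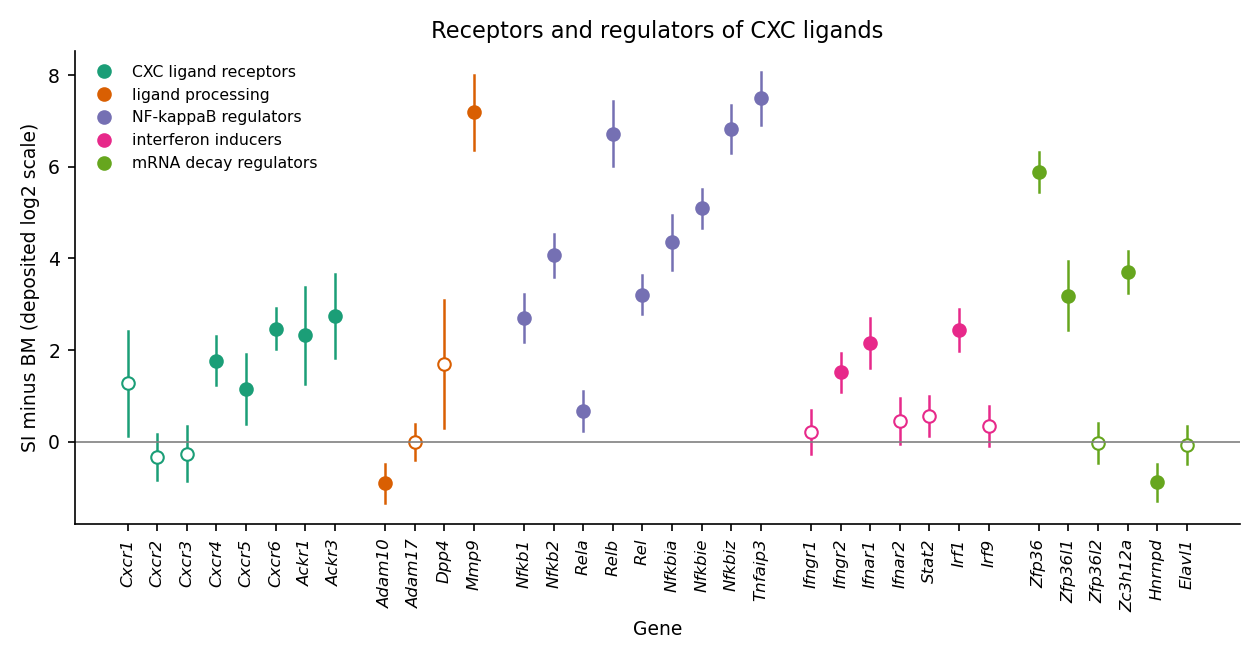
Difference between the tissues of receptor, processing, NF-kappaB, interferon and mRNA decay genes, positive where small intestine was higher (deposited log2 scale), with 95% limma intervals. Filled points passed an adjusted p of 0.05; all 9 NF-kappaB genes lie above 0, whereas Cxcr2, Adam17, Zfp36l2 and Elavl1 have intervals that include 0.

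For each of the 9 ligands with a mean of at least 10 reads, the protein-coding genes with the most similar profile over the 8 libraries were taken among genes of that depth, as the distance between profiles centred on their means on the deposited scale. Most similar to Cxcl2 were Ptgs2 (cyclooxygenase 2; distance 0.54), Rgs1 (0.58) and Adamdec1 (0.74), and most similar to Cxcl3 were Acod1 (0.57), Tgm2 (0.65) and Ptgs2 (0.72). The nearest genes were Aif1l (0.53), Rasip1 (0.69) and Lrrc32 (0.74) for Cxcl1, and Dennd3 (0.64), Btg2 (0.74) and Birc3 (0.75) for Cxcl10. For Cxcl16 they were Efnb2 (0.53), Lpp (0.62) and Smpdl3b (0.67), for Ppbp they were Tnfrsf10b (0.75), Tas2r135 (0.90) and Tnfrsf12a (0.997), and for Cxcl12 they were Ppp1r1a (0.73), Ceacam18 (0.74) and Mdp1 (0.74). Cxcl9 and Pf4 had no gene within a distance of 0.9, with Rhoq (1.11), Tmem109 (1.16) and Hpgds (1.19) nearest to Cxcl9 and Arhgap28 (0.97), Rdh5 (1.04) and Klhl35 (1.06) nearest to Pf4.

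Genes listed as markers of other cells and of handling moved with tissue beside the ligands. All 14 genes of a tissue dissociation response, with the largest differences for Fosb, Atf3, Dusp1 and Nr4a1, were called higher in small intestine (summed share 0.00580% to 0.00756% of reads in bone marrow and 0.443% to 0.572% in small intestine). So were 9 of 11 macrophage and dendritic cell markers, led by Itgax, Adgre1 and Cd74 (0.00779% to 0.00868% and 0.194% to 0.244%), 8 of 8 epithelial markers, led by Krt19, Cdh1 and Krt8 (0.000440% to 0.000791% and 0.0182% to 0.116%), 7 of 8 fibroblast markers, led by Col3a1, Lepr and Dcn, though Pdgfrb turned to -0.20 with median-centring (0.000193% to 0.000828% and 0.00153% to 0.00570%), and 7 of 7 endothelial markers, led by Pecam1, Vwf and Cdh5 (0.00272% to 0.00385% and 0.0479% to 0.0574%). All 10 neutrophil markers, led by Mpo, S100a9 and Elane, were lower, with 0.00446% to 0.00633% of reads in small intestine. Of 7 eosinophil markers, led by Alox15, Ccr3 and Siglecf, 4 were higher and 3 lower (0.0192% to 0.0295% and 0.215% to 0.268%). With median-centring Ier2 and Ier3 of the dissociation response and the macrophage markers C1qb and C1qc lost their calls (limma adjusted p between 0.224 and 0.941). Mrc1 was then called lower (-1.52, limma adjusted p = 0.0063). Most of the summed share of macrophage and dendritic cell markers in small intestine came from Itgax and Adgre1. They averaged 14221 and 13672 normalised counts there, and Cd74, the next highest of the list, 3141. C1qa, Fcgr1 and Mrc1 averaged only 76.8, 16.5 and 115.2. Whether the reads of Itgax and Adgre1 came from eosinophils or from other cells was not tested.

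Within small intestine, SI_6 had the highest share of epithelial, fibroblast, and macrophage and dendritic cell markers and the lowest share of eosinophil markers. It also had the lowest share of endothelial markers (0.0479%), of the dissociation response (0.443%), and of neutrophil and platelet markers. Of the macrophage and dendritic cell markers, Itgax and Adgre1 were lowest in SI_6 and Cd74 was highest there. Cxcl9, Cxcl12 and Cxcl16 were highest in SI_6, and Cxcl2, Cxcl3 and Cxcl10 were lowest there. Ppbp was nearly level in SI_6, SI_7 and SI_10 (437.7, 442.4 and 443.0 normalised counts). Without SI_6 the differences of Cxcl16, Cxcl12 and Cxcl9 were 3.49, 0.54 and 0.71. The part of these cells and of the dissociation response in the results was not tested.

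**Figure D5:**
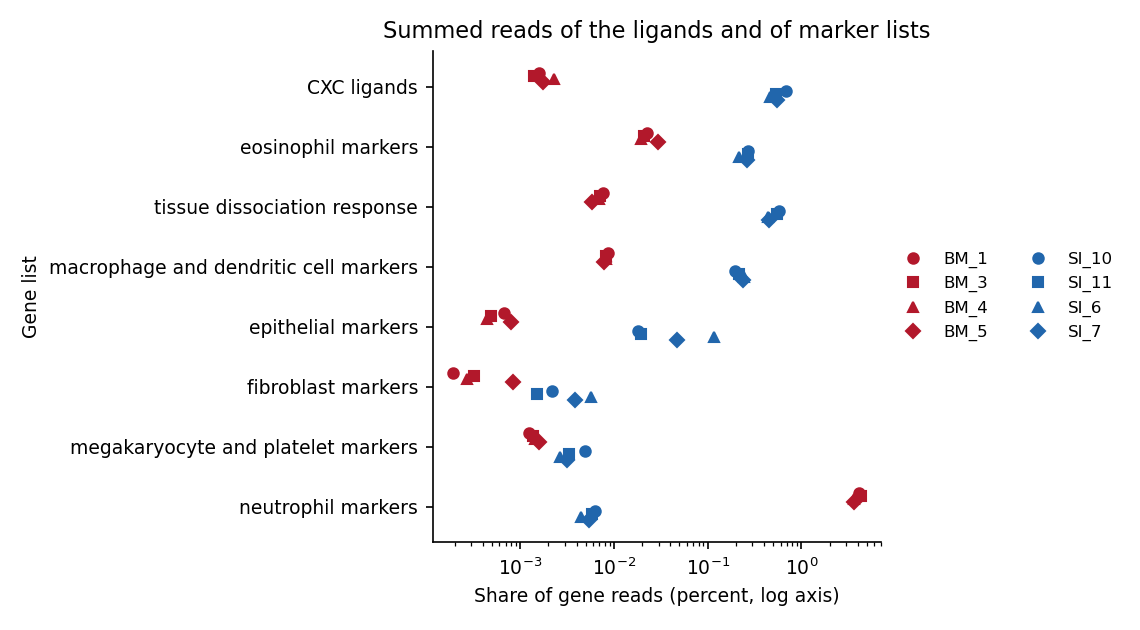
Summed share of gene reads (percent, log x axis) of the 10 CXC ligands and of marker lists (y axis) in bone marrow (red) and small intestine (blue) libraries. The ligands lie between 0.00141% and 0.00229% in bone marrow and between 0.461% and 0.677% in small intestine, neutrophil markers are high in bone marrow, and epithelial markers are highest in SI_6 (0.116%).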

How the data were processed

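RNA was sequenced from sorted eosinophils of bone marrow and small intestine. Per the study's methods, cDNA was amplified, reads were single-ended, and the authors aligned them to GRCm38 and counted them per gene with nf-core/rnaseq. The log2 values deposited by the authors are these counts after variance stabilisation in DESeq2 (R 4.0.3). Aligner, strand setting and treatment of multi-mapped reads: not given in the sources used here. The column names gave the tissue of each library but no single sample.

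The transformation was inverted from its lowest value (0.92971568), which gave whole reads for 100% of values in each library (tolerance 0.05 reads) with size factors between 0.721 and 1.53. Precision is poorest at low depth, and 22177 genes averaged under 10 reads.

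The deposited values of all 38392 genes and 8 libraries were fitted in limma 3.58.1 (R 4.3.3) without filter or covariate and with eBayes at its constant prior, and p-values were adjusted by Benjamini-Hochberg with a threshold of 0.05. The authors fitted a count model; limma takes its place because the deposited unit is log2. P-values measure the spread between libraries, which the study describes as separate mice. Single ratios were tested with 2-sided exact permutation tests over 70 assignments. Gene positions, exon lengths and transcripts were those of GENCODE M21 (GRCm38), in which all identifiers were found. The fit was tested on simulated data. The remaining steps ran in Python 3.11.15 (scipy 1.17.1, numpy 2.4.6, matplotlib 3.10.9, pandas 2.3.3).

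The ligands and lists were chosen with earlier results of these data known. Named were all ligands and receptors, up to 4 genes of each other list with the largest absolute difference, the 3 most abundant genes of each marker list, and the 3 most similar profiles per ligand. Rela, Adam17, Dpp4, Zfp36l2, Elavl1, Epx, Art3, Zmynd15, C1qa, C1qb, C1qc, Fcgr1, Mrc1, Ier2, Ier3, Ccl2, Ccl17, Ccl20 and Ccl22 were added after their values were seen. In the interferon list 1 gene is counted but not reported here. Alternatives were voom on recovered reads, other scalings, a filter at a mean of 10 reads, a trended prior, log2 of normalised counts with 1 or 5 added, and leaving out each library.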

Additional observations from a re-analysis of the deposited data

Results flagged for a closer look

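In each tissue, values of 4 libraries were examined for a library whose gap to its nearest neighbour took up more of the whole range than Dixon's 95% critical value. Of 64 sets of 4 values, 4 held such a library, where chance gives about 1 in 20. Ppbp was highest in SI_11 of the small intestine libraries (gap over range 0.947), with 548.8 normalised counts against 437.7 to 443.0. Cxcl3 was lowest in BM_3 of the bone marrow libraries (0.850). The ratio of Cxcl2 to Cxcl3 was lowest in BM_1 (0.902). The share of reads in eosinophil markers was lowest in SI_6 of the small intestine libraries (0.895). No explanation was tested for these values.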

How the results depend on the processing

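Of 149 differences of single ligands under the alternatives, 146 kept their direction and side of the threshold. The exceptions, none past the threshold, were Cxcl12 with median-centred libraries (-0.038) and Pf4 with median-centring (-0.38) and quantile normalisation (-0.39). The number of ligands called higher was 6 under every alternative, and none was called lower. Median-centring moved the median difference of all genes from 0.37 to -0.53, and quantile normalisation moved it to -0.03. The split of all calls went from 63.2% higher to 29.5% and 45.8%. Since 22177 of the 38392 genes averaged under 10 reads, the median of a library lies among genes with few reads. Median-centred differences of well-covered genes, Cxcr2 and Cxcr4 among them, carry that shift.

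Counts of related genes called higher moved as follows. With median-centring they were 3 receptors and 0 other CXC ligands (2 in the main test: Cxcl11 and Cxcl13), with quantile normalisation 3 receptors, 1 other CXC ligand and 5 interferon genes, and with voom 2 processing and 5 interferon genes. With genes under a mean of 10 reads left out they were 2 receptors, 0 other CXC ligands, 2 processing genes and 7 CC and other chemokines, since fewer genes were tested, and with a trended prior 2 processing and 5 interferon genes. Called lower were, with median-centring, 2 receptors, 1 other CXC ligand and 2 CC and other chemokines, with quantile normalisation 1 receptor and 1 other CXC ligand, and with 5 added 1 other CXC ligand. The cause was not tested for the others.

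Leaving out a library gave 1 to 3 other CXC ligands (3 without BM_5), 1 to 2 processing genes (2 without SI_11), 3 to 5 interferon genes (5 without SI_6), 1 to 3 neighbours without overlap in the bone marrow order (1 in the main analysis) and 4 to 5 in that of small intestine. The ratio differences were then 5.43 to 5.77 for Cxcl2 to Cxcl1, 5.02 to 5.42 for Cxcl3 to Cxcl1, 0.27 to 0.46 for Cxcl2 to Cxcl3, 3.80 to 4.68 for Cxcl10 to Cxcl9 and 2.15 to 2.79 for Ppbp to Pf4; with 7 libraries the smallest possible p is 0.0571, so these say nothing of the call. With no reads added, an alternative chosen after seeing the data, Cxcl2 to Cxcl3 gave 0.30 and lost its call, since the tissues overlapped. The ligand share in bone marrow was 0.00224% of reads without mitochondrial and ribosomal RNA genes, which have a smaller total. No paired analysis was possible because no replicate number is shared by bone marrow and small intestine. Depth limits Cxcl5, Cxcl1 in bone marrow and most receptors.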

Other observations

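Among the other CXC ligands, none had a mean of 10 reads. Cxcl13, which attracts B cells, rose from 0.232 ± 0.465 to 4.11 ± 0.968 normalised counts (1.71 ± 0.28, limma adjusted p = 0.00145), and Cxcl11, a Cxcr3 ligand annotated as a polymorphic pseudogene in this strain's reference, rose by 1.85 ± 0.57 (limma adjusted p = 0.0356); both calls were lost with median-centring, and that of Cxcl11, whose libraries overlapped between the tissues, also with quantile normalisation (adjusted p = 0.173). Cxcl17 differed by -1.41 (limma adjusted p = 0.0829) and was called lower with median-centring (-2.31, adjusted p = 1.32e-05) and with quantile normalisation (-2.37, adjusted p = 0.00084); Cxcl14 and Cxcl15 by 0.39 and 1.52 (0.591 and 0.156).

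Of 18 CC and other chemokine ligands, 12 were called higher in small intestine and none lower, against 6 of 10 CXC ligands, with a median difference of 2.18 against 3.35. Over all genes, 22.0% were called higher. Leaving out a library gave 9 to 11 of the 18, of which 8 had a mean of at least 10 reads. With quantile normalisation Ccl2, Ccl17, Ccl20 and Ccl22 lost their calls (limma adjusted p between 0.0815 and 0.173). The largest differences in this list were those of Ccl3 (8.79 ± 0.58), Ccl4 (8.42 ± 0.50), Ccl6 (7.26 ± 0.33) and Ccl28 (5.06 ± 0.75), with limma adjusted p-values between 2.03e-06 and 0.000931. Ccl28 had 429.0, 188.6, 45.9 and 93.6 normalised counts in SI_6, SI_7, SI_10 and SI_11. It was highest in SI_6, as was the share of epithelial markers. The part of epithelial cells in its rise was not tested.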
